A study of Mus musculus with 10 samples.

Results

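The nuclear genes of the respiratory chain and of ATP synthase were examined in mouse brain at 1 week and at 8 weeks of age. The members were all probe sets with a single annotated symbol that begins with Nduf, Uqcr or Atp5, or with Cox followed by a digit from 4 to 8, or that reads Cyc1 or Cycs. This gave 153 of the 22626 non-control probe sets and 82 of the 12393 genes with a single symbol. By role there were 33 subunits of complex I, 9 of complex III, cytochrome c, 16 of complex IV, 17 of ATP synthase (complex V), 5 assembly factors of complex I and the supercomplex factor Cox7a2l. Of the 82 genes, 79 were bright enough to be tested. Cox7a1 and Cox8b, the muscle isoforms of complex IV subunits, and Cox7c were not, with no normalized intensity above 48.1 on any array.

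The study asked how age and sex relate to gene expression in mouse brain. All mice were C57BL/6, a common inbred strain, and the labels name no transgene or treatment. Total RNA was hybridised to Affymetrix MOE430A arrays, on which short oligonucleotides grouped in probe sets read each transcript. At 1 week, 6 arrays were split evenly between the sex labels (3 each), and at 8 weeks 4 arrays (2 each). Brains are numbered within each group without a statement that each came from its own animal, so the p-values measure the spread between these samples, and the number of arrays limits the precision.

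The respiratory chain passes electrons from NADH and succinate through complexes I to IV to oxygen and pumps protons across the inner mitochondrial membrane, and ATP synthase uses the returning protons to make ATP. Complex I takes electrons from NADH, complex III passes them to cytochrome c, and complex IV hands them to oxygen. Neurons rely on this pathway for the ATP that ion pumping and synaptic transmission consume. Each complex but complex II also holds subunits encoded in mitochondrial DNA, which are not among the members, and complex I is built with the help of assembly factors that leave the finished enzyme.

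Many nuclear genes of this pathway are known targets of nuclear respiratory factor 1 (the NRF1 protein), so the promoters were searched for its site. Windows of 250 bases before the annotated start were taken from RefSeq (GRCm38.p6), which held an entry for 68 of the 82 genes. The consensus, GCGCA followed by any base and then GCGC, read on both strands, was present in 9 of the 68 genes (13.2%), against 1144 of 27025 genes with an entry (4.23%). The latter were not matched to the members for base composition, and no difference in motif shares was tested. The windows of these 9 genes are shown because they hold the exact site, with the match in capitals and up to 20 bases on either side, written 5′ to 3′ along the gene's strand.
Atp5c1, chr2:10080433-10080469, minus strand: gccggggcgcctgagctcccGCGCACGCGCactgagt
Atp5g2, chr15:102671060-102671109, minus strand: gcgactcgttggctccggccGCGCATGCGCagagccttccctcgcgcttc
Atp5h, chr11:115420031-115420080, minus strand: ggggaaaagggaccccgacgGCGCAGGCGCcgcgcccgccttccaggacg
Atp5k, chr5:108434420-108434469, minus strand: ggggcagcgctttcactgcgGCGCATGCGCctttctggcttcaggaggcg
Cox6a1, chr5:115349091-115349140, minus strand: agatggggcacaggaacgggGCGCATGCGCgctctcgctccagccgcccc
Ndufa5, chr6:24527687-24527736, minus strand: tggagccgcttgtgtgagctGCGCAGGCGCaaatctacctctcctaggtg
Ndufa8, chr2:36049339-36049388, minus strand: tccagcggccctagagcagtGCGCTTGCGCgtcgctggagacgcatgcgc
Ndufaf4, chr4:24897950-24897999, plus strand: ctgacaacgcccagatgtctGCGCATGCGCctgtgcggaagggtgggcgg
Ndufs5, chr4:123718255-123718304, minus strand: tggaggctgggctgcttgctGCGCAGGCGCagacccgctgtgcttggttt
The capitals begin between 17 and 190 bases before the start of the entry shown. The Cox6a1 window held 2 matches and Ndufa5 had 2 entries with a match, and only the first of each is shown. The 9 genes lay in complex I (Ndufa5, Ndufa8 and Ndufs5), complex IV (Cox6a1), ATP synthase (Atp5c1, Atp5g2, Atp5h and Atp5k) and the assembly factors (Ndufaf4). Cox6a1 and Ndufs5 were among the genes that rose with age and the other 7 were not called, so that the motif was in 2 of the 15 rising and 0 of the 5 falling members with an entry. The GABP motif CCGGAAGT was in 3 of the 68 genes (4.41%, against 3.23% of all genes), the YY1 motif AAGATGGCG in 1 (1.47% against 0.71%) and the ERR motif AAGGTCA in 4 (5.88% against 4.70%), all read on both strands. Ndufs5 held both an NRF1 and an ERR match, and Atp5h both an NRF1 and a GABP match. A match is a string of letters and not a measured binding site.

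The arrays differed in brightness and some did not match their sex label. Trimmed means of the deposited intensities ran from 138 to 236 at 1 week and from 255 to 318 at 8 weeks, so arrays were quantile-normalized, which gives every array the same distribution. RNA integrity, read as the 3' over 5' intensity of the actin control probe sets, gave ratios of 1.11 ± 0.040 (SD, n = 4) at 8 weeks and 1.03 ± 0.051 (SD, n = 6) at 1 week (p = 0.0381 by an exact two-sided permutation test, 0.0635 after adjustment over 5 array measures). The same ratio of the Gapdh controls was 0.793 ± 0.017 (SD, n = 4) at 8 weeks and 0.822 ± 0.073 (SD, n = 6) at 1 week (p = 0.486 by the same exact test). Their part in the differences below was not tested. The X-linked Xist and the Y-linked Eif2s3y followed the label in all 4 arrays at 8 weeks, opposed it in 4 of the 6 arrays at 1 week, and were both present in 1 more. Age was therefore compared over both labels together, and sex at 8 weeks alone.

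Changes with age were small and went both ways. In complex I 12 of 33 genes rose (36.4%, against 21.9% of all genes). The count was 2 of 33, against 15.5% of all genes, without the 4 arrays that opposed their sex label. In ATP synthase, with all arrays, 4 of 17 fell (23.5%, near the 24.0% of all genes). At 8 weeks 20 of the 79 genes were higher and 7 lower than at 1 week (limma, adjusted p under 0.05), and 52 were not called. The Benjamini-Hochberg adjustment ran over all 13576 tested probe sets, of which 8148 each stood for a gene. The share of members called was 34.2%, against 45.9% of all genes tested. By direction, 25.3% of members were higher against a background of 21.9%, and 8.86% were lower against 24.0%. The former is near the background and the latter below it, and neither difference was tested. The median log2 change of the members was 0.085, against -0.020 for all genes, and members ranged from -0.36 to 0.68. No member changed 2-fold or more, whereas 476 of the 8148 genes (5.84%) did so past the threshold. The arrays of the ages did not overlap for 21 members that were higher at 8 weeks and 6 that were lower, against 17.5% and 18.4% of all genes (35.9% together). In whole brain, fewer cells of a type and less RNA per cell cannot be told apart.

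**Figure D1:**
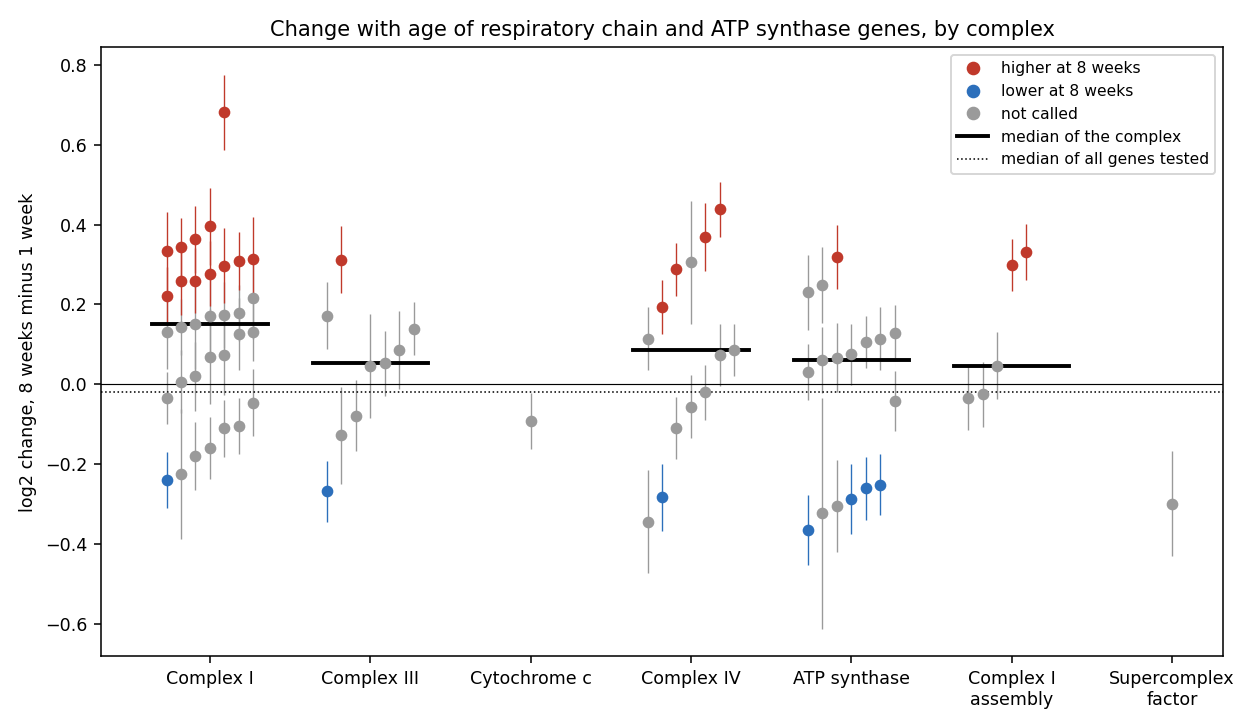
Log2 change (8 weeks minus 1 week, quantile-normalized) of each tested member, by complex; bars are standard errors, thick lines the median of a complex and the dotted line the median of all genes tested. Rises are red (in complex I 12 of 33 genes, 36.4% against 21.9% of all genes). Without the 4 arrays that opposed their sex label, 2 of these 33 were called higher (against 15.5% of all genes). Falls are blue (in ATP synthase 4 of 17, 23.5% against 24.0%), and their sign turns on the deposited scale.

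The calls depended on how the arrays were scaled. Without normalization, the median log2 change of all genes was 0.47. There 67 of 79 members were called higher and 0 lower, against 5261 and 365 of 8148 genes. With spike-in scaling the median was 0.14, with 15 of 79 members higher and 0 lower, against 1813 and 707 of 8150 genes. With each array scaled to a common median, 17 of 79 were higher and 6 lower, against 1811 and 1752 of 8150 genes. Among these members were 16 of the 20 rises and 5 of the 7 falls (Atp5e, Atp5g3, Atp5o, Cox4i2 and Uqcrq). Of the 20 rises, 15 were called under all 3 other scalings, and of the 7 falls, 0 were. Without normalization and with spike-in scaling all genes shifted upward, which favours rises. These counts therefore do not compare how steady rises and falls were. Relative to the median of all genes, all 20 rises stayed above and all 7 falls stayed below under each of the 3. Those 3 scalings differ mainly by a shift common to all genes, which this step removes, so they are not separate checks. The genes were also picked by their calls in these same arrays. On the deposited values the 7 falls read 0.15 to 0.29, that is -0.32 to -0.18 relative to that median. Complex I stood above all genes by 0.17, 0.21, 0.17 and 0.18 with quantile normalization, no normalization, median scaling and spike-in scaling. Complex IV stood above by 0.11 and 0.012 in the first pair and below, at -0.038 and -0.023, in the second, and ATP synthase read 0.081, 0.040, -0.011 and 0.0048.

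**Figure D2:**
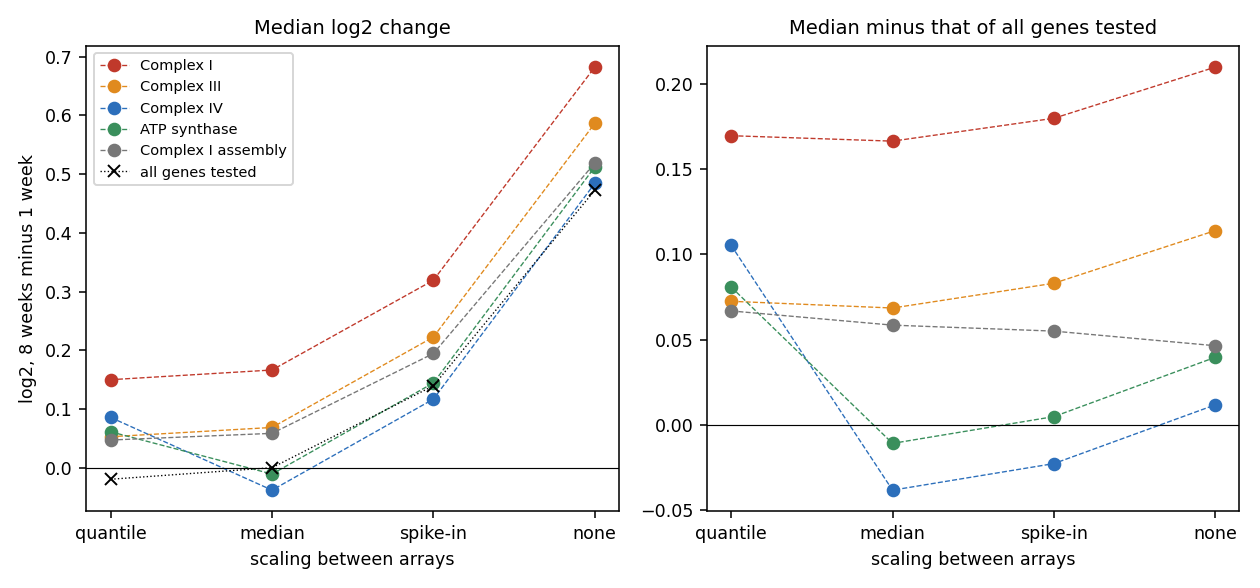
Median log2 change of each complex (left) and the same minus the median of all genes tested (right) under 4 scalings between arrays; lines only join points of a complex. Complex I stays 0.17 to 0.21 above all genes, whereas complex IV and ATP synthase cross 0 in the right panel.

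Leaving out arrays also changed the counts. Without the 4 arrays at 1 week whose sex transcripts opposed their label, 8 of 79 members were higher and 2 lower. Of all 8143 genes, 1266 (15.5%) were higher and 1155 (14.2%) lower. The 8 were Ndufs7, Ndufb3, Uqcrc2, Cox8a, Cox4i1, Atp5b, Ndufaf1 and Ndufaf3, and the 2 were Atp5e and Atp5k. Complex I thus had 2 of 33 genes higher in this fit, a share below that of all genes, with a median change of 0.12. Without all 5 that did not match, only 1 array was left at 1 week, taken to vary like the others, and 8 members were higher and 3 lower (15.0% and 12.3% of all genes). The 3 lower were Atp5e, Atp5k and Cox7a2l. Ndufs7, Cox8a, Cox4i1, Atp5b and Atp5e kept their call in both, and all 20 rises and 7 falls kept their sign. Leaving out female replicate 2 at 8 weeks left 13 of 79 members higher, 6 of them in complex I, against 1482 of 8159 genes. Leaving out female replicate 1 or male replicate 1 at 8 weeks left 2 and 1 members lower. The counts for all genes were 1668 of 8156 and 1728 of 8159.

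Complex I, which takes electrons from NADH and is the main entry of the chain, held 33 of the 79 tested members and 12 of the 20 that rose. Of its genes 12 were higher and 1 lower at 8 weeks, and the median log2 change was 0.15. The shares were 36.4% and 3.03%, against 21.9% and 24.0% of all genes, a difference that was not tested. Among 6 core subunits, which include the carriers of the flavin and the iron-sulfur clusters, 2 were called, both higher, and all 6 changes were above 0 (median 0.18). Among 27 accessory subunits, which surround the core, 10 were higher and 1 lower (median 0.15). Without the 4 arrays that opposed their sex label, 2 of the 33 genes were higher (against 15.5% of all genes).

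Ndufs7 encodes the core subunit with the last iron-sulfur cluster before ubiquinone, and had the largest rise of any member. Its normalized intensity ran from 863 to 1071 at 1 week (median 911) and 1378, 1589.7, 1509 and 1689 at 8 weeks. All 4 arrays at 8 weeks were above all 6 at 1 week. The log2 change was 0.68 ± 0.093 (SE, adjusted p = 0.000229), and its other tested probe set was called too, at 0.45. With Cox4i1 and Cox8a it was 1 of only 3 members called in each of the 24 alternative settings.

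Ndufs1, the largest core subunit and a carrier of iron-sulfur clusters, read from 650.2 to 735 at 1 week (median 697) and 846, 795, 922 and 908 at 8 weeks. Arrays of the ages did not overlap, and the change was 0.31 ± 0.072 (SE, adjusted p = 0.00561). The other 4 core genes were not called. Their log2 differences were 0.14 for Ndufv1, which binds NADH (adjusted p = 0.121), 0.020 for its neighbour Ndufv2, 0.22 for Ndufs3 and 0.0066 for Ndufs8, a further iron-sulfur protein. The other 2 of the 3 tested probe sets of Ndufv1 were called higher, with a change of up to 0.42.

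Among accessory subunits the largest rises were in Ndufa12, Ndufa13, Ndufb3 and Ndufab1. Ndufa12, in the matrix arm, read from 1563 to 2120.2 at 1 week (median 1821) and 2401, 2499, 2504 and 2413 at 8 weeks. The lowest array at 8 weeks was above the highest at 1 week, and the change was 0.40 ± 0.096 (SE, adjusted p = 0.0071). Ndufa13, also known as GRIM-19 for a role in cell death, read from 1523 to 1834 at 1 week (median 1750.04) and 1920.1, 2137, 2547 and 2300.1 at 8 weeks. No array at 8 weeks fell within the range of 1 week, male replicate 1 was the highest, and the change was 0.36 ± 0.083 (SE, adjusted p = 0.00506). Ndufb3, in the membrane arm, read from 698 to 780.5 at 1 week (median 729) and 944, 983, 973 and 850.1 at 8 weeks. The ages did not overlap here either, and the change was 0.34 ± 0.074 (SE, adjusted p = 0.00367).

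Ndufab1 is the mitochondrial acyl carrier protein, which also serves fatty acid synthesis. Its brightest probe set read from 655 to 855 at 1 week (median 798) and 837, 949.6, 1035 and 1100.4 at 8 weeks. Female replicate 1 at 8 weeks lay within the range of 1 week, so the ages overlapped. The change was 0.33 ± 0.098 (SE, adjusted p = 0.0185), and the call was lost without female replicate 2 (adjusted p = 0.0724) or male replicate 2 at 8 weeks (adjusted p = 0.0618). A dimmer probe set of Ndufab1 rose by 0.88 ± 0.14 (SE, adjusted p = 0.000628), with no overlap.

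A further 6 accessory genes rose by less. Ndufb9 changed by 0.31, Ndufs5 by 0.30, Ndufb10 by 0.28, Ndufa9 by 0.26, Ndufb5 by 0.26 and Ndufa1 by 0.22, with adjusted p between 0.0179 and 0.03. The ages overlapped for Ndufb9 alone among these. Ndufs5, Ndufb5, Ndufa1 and Ndufb9 kept the call in 5, 4, 4 and 3 of the 10 fits that left out 1 array. The 20 genes of complex I that were not called ranged from -0.22 (Ndufb1) to 0.22 (Ndufs3), and Ndufa8, with arrays that did not overlap, came closest to the threshold (0.18, adjusted p = 0.0589).

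Ndufs4 was the only called fall in complex I. It encodes an accessory subunit whose loss in mice causes a fatal brain disease resembling Leigh syndrome. Its brightest probe set read from 518 to 598 at 1 week (median 558) and 446, 458, 487 and 497 at 8 weeks. The highest array at 8 weeks was below the lowest at 1 week. The change was -0.24 ± 0.070 (SE, adjusted p = 0.0178), and it read 0.29 on the deposited values, without a call. A dimmer probe set of the same gene went the other way, from 91.9 to 121 at 1 week and 148, 126, 152 and 136 at 8 weeks, a change of 0.29 ± 0.089 (SE, adjusted p = 0.0213), and the third read -0.27 without a call. The mean of the 3 probe sets differed by -0.072 (adjusted p = 0.495), so the gene has no settled direction. The fall was also lost without female replicate 1 (adjusted p = 0.0572) or male replicate 1 (adjusted p = 0.0535) at 8 weeks.

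**Figure D3:**
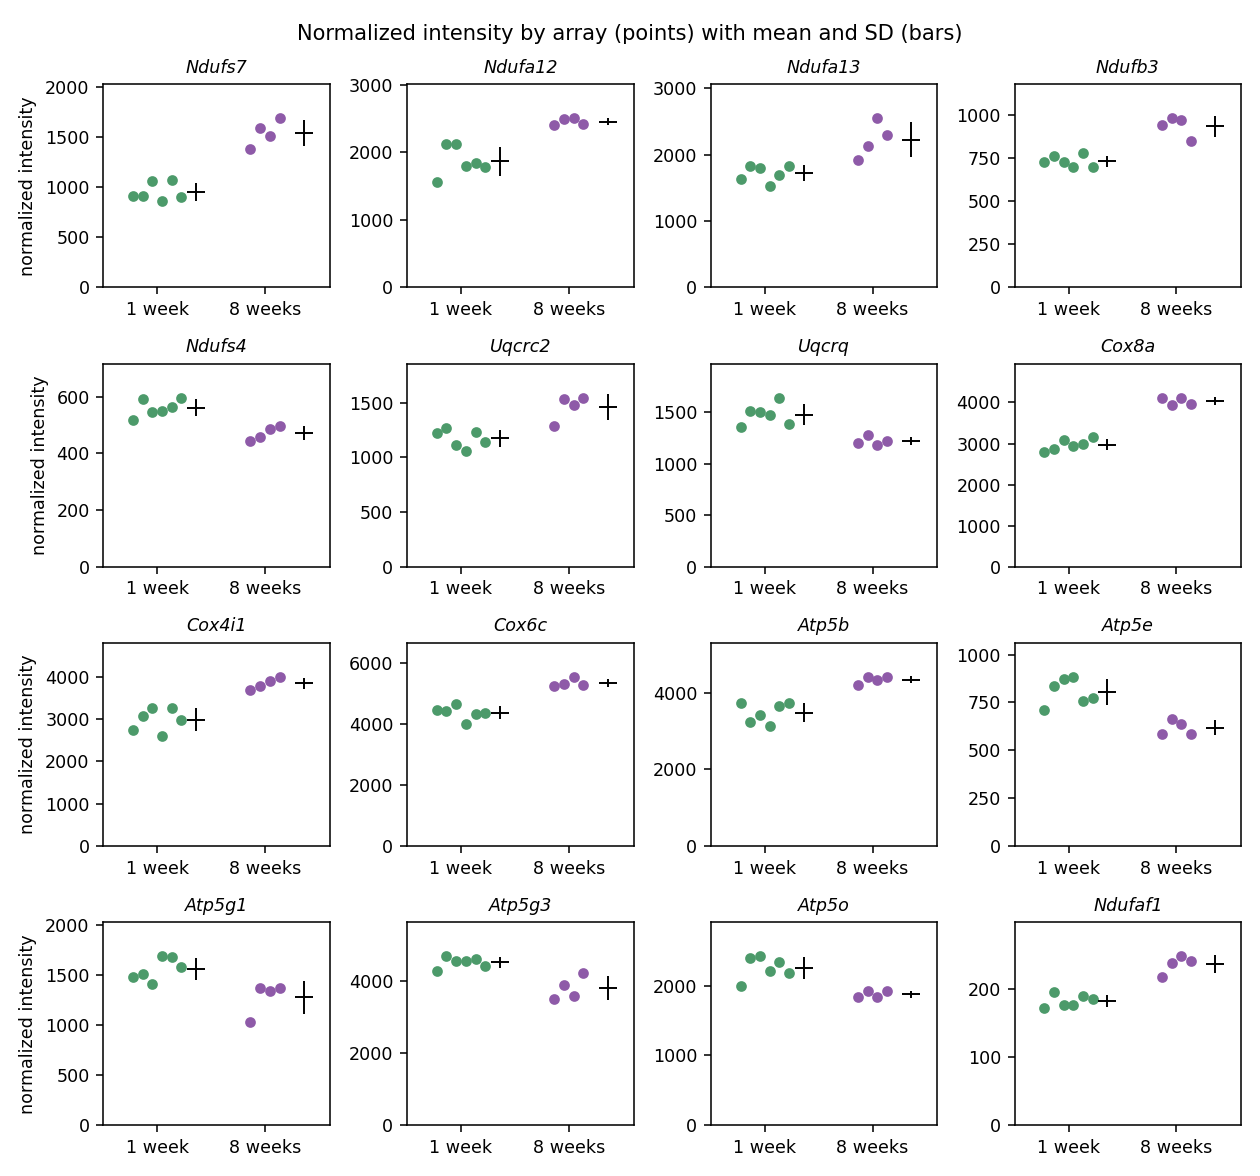
Normalized intensity of 16 members in each array (points; linear axes from 0, in array units), with the mean and SD beside them. For Ndufs7 the 4 arrays at 8 weeks (1378 to 1689) lie above the 6 at 1 week (863 to 1071), and for Atp5e they lie below; the falls read above 0 on the deposited scale.

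Complex III, which passes electrons from ubiquinol to cytochrome c, held few called genes. Of its 9 genes 1 was higher, 1 lower and 7 were not called, with a median log2 change of 0.053. This is 11.1% each way, against 21.9% higher and 24.0% lower of all genes, and was not tested. The 2 nuclear subunits with redox centres were not called, with log2 differences of 0.086 for Uqcrfs1, the Rieske iron-sulfur protein, and 0.053 for Cyc1, which carries a haem.

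Uqcrc2, a core protein of complex III without a redox centre, read from 1057 to 1268 at 1 week (median 1185) and 1291, 1539, 1482 and 1548 at 8 weeks. There was no overlap between the ages, with female replicate 1 the lowest at 8 weeks. The change was 0.31 ± 0.083 (SE, adjusted p = 0.0115), and it lost the call without female replicate 2 at 8 weeks (adjusted p = 0.0576). Uqcrq, a small membrane subunit, read from 1363 to 1645 at 1 week (median 1486) and 1206, 1279, 1183 and 1224 at 8 weeks. All 4 arrays at 8 weeks were below those at 1 week. The change was -0.27 ± 0.077 (SE, adjusted p = 0.0164), but 0.26 without a call on the deposited values. Its 2 other probe sets were not called, the mean of the 3 differed by -0.076 (adjusted p = 0.329), and the call was lost without female replicate 1 (adjusted p = 0.0602) or male replicate 1 (adjusted p = 0.0531) at 8 weeks.

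Cytochrome c, the carrier between complexes III and IV, was read by 3 probe sets of Cycs that differed. The brightest differed by -0.092 ± 0.071 (SE, adjusted p = 0.313) and was not called. Another ran from 699 to 859.9, with a median of 757, at 1 week and 1042, 965, 861 and 900.2 at 8 weeks, and rose by 0.29 ± 0.075 (SE, adjusted p = 0.0102). The remaining probe set differed by 0.11 and was not called.

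Complex IV, which hands electrons to oxygen, had 30.8% of its 13 tested genes higher and 7.69% lower, against 21.9% and 24.0% of all genes. Of the 9 tested nuclear subunits found in most tissues 4 were higher and 0 lower (median 0.11), and at an unadjusted p under 0.05 limma also gave 0 lower. Of the 4 tested isoforms known from other tissues or conditions 1 was lower and 0 higher (median -0.20, from -0.34 to 0.31), and the difference between these kinds was not tested. Over all 13 the median was 0.085, and it was -0.038 with median scaling.

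Cox8a, a small membrane subunit present in most tissues, had the largest rise in complex IV. It read from 2789 to 3154 at 1 week (median 2959.8) and 4104, 3929, 4119 and 3953 at 8 weeks. The arrays of the ages did not overlap, and the change was 0.44 ± 0.069 (SE, adjusted p = 0.000558). Its second probe set changed by 0.43 and was called too. Cox4i1, the common form of the regulatory subunit that binds nucleotides, read from 2597 to 3255 at 1 week (median 3021) and 3696, 3786, 3893 and 3996 at 8 weeks. Here too the ages did not overlap, and the change was 0.37 ± 0.086 (SE, adjusted p = 0.00573). Cox6c, another small membrane subunit, read from 4009 to 4649.9 at 1 week (median 4388) and 5236, 5296, 5535 and 5264 at 8 weeks. Its ages did not overlap and the change was 0.29 ± 0.067 (SE, adjusted p = 0.00562), but with median scaling it was 0.15 and not called (adjusted p = 0.215).

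Cox6a1, the common form of its subunit and 1 of the 9 genes with the NRF1 motif shown above, read from 4702 to 5209.7 at 1 week (median 4967) and 5755, 5713, 5618 and 5618 at 8 weeks. There was no overlap between the ages. The change was 0.19 ± 0.068 (SE, adjusted p = 0.0387), and it was the least steady call of all members, kept in 9 of 24 alternatives and in 1 of the 10 fits that left out an array, with adjusted p up to 0.0942 in those fits. The call ended when any single array other than male replicate 1 at 1 week was left out. The other nuclear subunits were not called and ranged from -0.056 (Ndufa4) to 0.11 (Cox5b); for Cox5b 2 of 4 probe sets were called higher, with a change of up to 0.30.

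Among the isoforms, Cox4i2 encodes the alternative form of the regulatory subunit, known from lung and from response to low oxygen. It read from 111 to 145 at 1 week (median 138) and 101, 96.9, 107 and 121 at 8 weeks. The ages overlapped through female replicate 3 at 1 week, at 111. The change was -0.28 ± 0.084 (SE, adjusted p = 0.019), and 0.16 without a call on the deposited values. The call was lost without female replicate 2 (adjusted p = 0.062) or male replicate 1 (adjusted p = 0.0717) at 8 weeks. Cox6b2, a testis isoform, differed by -0.34 ± 0.13 (SE, adjusted p = 0.0501), Cox6a2, a heart and muscle isoform, by -0.11 ± 0.078 (SE, adjusted p = 0.28), and Cox8c, a testis isoform, by 0.31 ± 0.15 (SE, adjusted p = 0.131). None of these 3 was called, and the ages overlapped in each.

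Because paired isoforms take the same place in the enzyme, the log2 ratio of each pair was taken within each array and compared between the ages. With 4 arrays against 6 the test allows a smallest two-sided exact p of 0.00952, and p was adjusted over 6 pairs. Levels of different probe sets are not comparable, so each ratio is given minus its mean over the 10 arrays. Cox4i1 over Cox4i2 ran from -0.52 to 0.10 at 1 week and from 0.30 to 0.48 at 8 weeks, without overlap. The ratio rose by 0.65 (exact permutation p = 0.00952, adjusted p = 0.0143). Cox6a1 over Cox6a2 ran from -0.26 to 0.021 and from 0.11 to 0.27, and rose by 0.30 (exact permutation p = 0.00952, adjusted p = 0.0143), though it was not called with the other 3 scalings (0.15 to 0.25). Cox6b1 over Cox6b2 differed by 0.32 and was not called (exact permutation p = 0.0476, adjusted p = 0.0571). A change of ratio shows that the members of a pair moved unequally, not which of them moved. Cox4i2, Cox6a2 and Cox6b2 were dim, with mean intensities of 135, 104 and 93.5 at 1 week and 106, 94.9 and 68.8 at 8 weeks. The filter lay at 73.9, and the part of background signal in these ratios was not tested. The pairs with Cox7a1 and Cox8b were not tested.

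**Figure D4:**
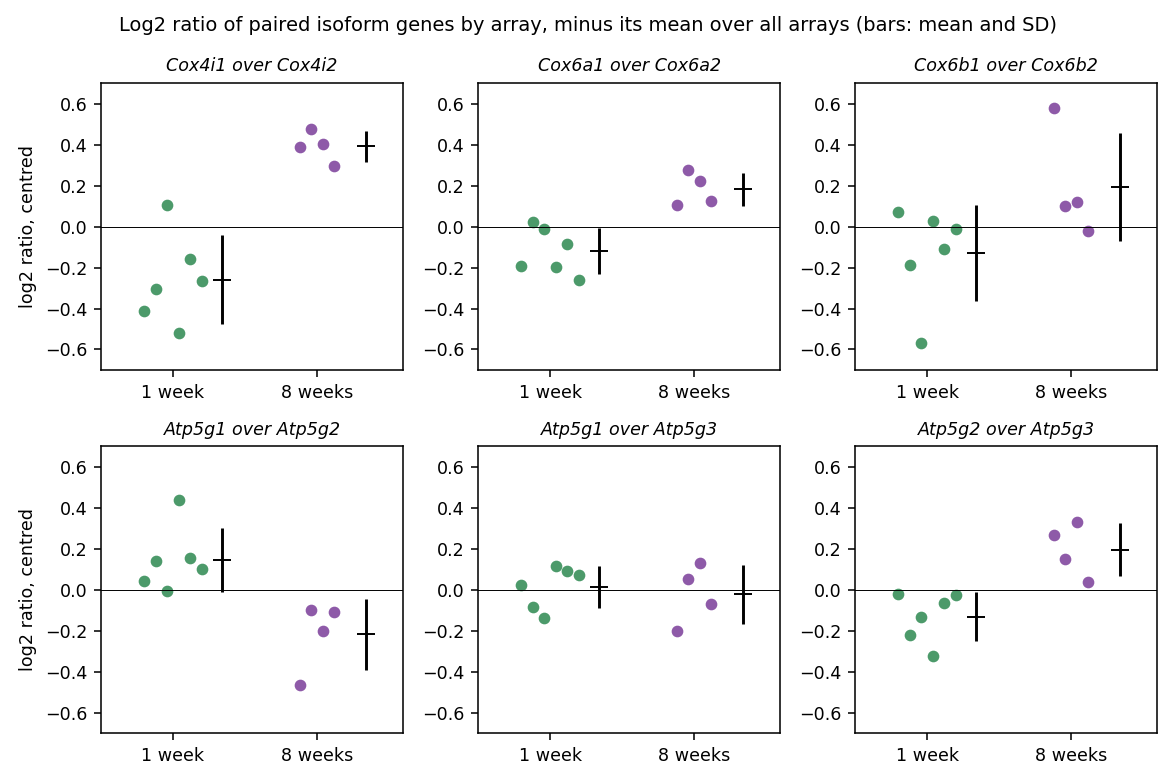
Log2 ratio of paired isoform genes in each array, minus its mean over the 10 arrays, with mean and SD beside the points. The ages do not overlap for 4 of the 6 pairs, among them Cox4i1 over Cox4i2 and Atp5g2 over Atp5g3, and overlap for Cox6b1 over Cox6b2 and Atp5g1 over Atp5g3.

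ATP synthase, which makes ATP from the proton gradient, had 1 of 17 genes higher and 4 lower, and 12 were not called. The share lower, 23.5%, was near that of all genes (24.0%), and the share higher was 5.88% against 21.9%, a difference that was not tested. The median log2 change was 0.061, and -0.011 with median scaling. Of the 5 subunits of the catalytic F1 head 1 was higher and 1 lower, of the 3 c subunit genes 2 were lower, and of the 9 stalk and membrane subunits 1 was lower.

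Atp5b, the catalytic beta subunit, was the only called rise. It read from 3132 to 3737 at 1 week (median 3543) and 4217, 4403, 4339 and 4418 at 8 weeks. The 2 ages were separate, and the change was 0.32 ± 0.080 (SE, adjusted p = 0.0083). With median scaling it was 0.20 and with spike-in scaling 0.35, neither of them called. Its partner Atp5a1, the alpha subunit, differed by 0.13 (adjusted p = 0.156), with a called rise of 0.23 in its second probe set. Atp5c1 and Atp5d, the gamma and delta subunits, differed by 0.031 and 0.11 and were not called.

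Atp5e, the epsilon subunit of the head's central stalk, fell most of all members. It read from 709 to 883 at 1 week (median 802) and 586, 664, 636 and 587 at 8 weeks. All 4 arrays at 8 weeks were below all 6 at 1 week. The change was -0.36 ± 0.088 (SE, adjusted p = 0.0069), and it was called in each of the 10 fits that left out an array. On the deposited values it read 0.19, without a call.

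The 3 c subunit genes encode the same mature protein of the membrane rotor behind different targeting sequences, and 2 of them fell. Atp5g1 read from 1411 to 1686 at 1 week (median 1544) and 1030.4, 1373, 1337 and 1368 at 8 weeks. Arrays of the ages did not overlap, and female replicate 1 at 8 weeks stood apart. The change was -0.29 ± 0.088 (SE, adjusted p = 0.0218), and without female replicate 1 it was -0.19 and not called (adjusted p = 0.0907). It was also not called without male replicate 1 or 2 at 8 weeks (adjusted p = 0.0604 and 0.0517), with median scaling (adjusted p = 0.0588) or on the deposited values, where it read 0.26.

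Atp5g3 read from 4284 to 4702 at 1 week (median 4577) and 3505, 3906, 3599 and 4233 at 8 weeks. No array at 8 weeks fell within the range of 1 week, with male replicate 2 the highest at 8 weeks. The change was -0.25 ± 0.077 (SE, adjusted p = 0.0226), and 0.15 without a call on the deposited values. Leaving out female replicate 2 at 1 week, or female replicate 1 or male replicate 1 at 8 weeks, ended the call (adjusted p = 0.051, 0.0893 and 0.0985). Atp5g2 read from 1078 to 1306 at 1 week (median 1241) and 1246, 1279.8, 1339 and 1284 at 8 weeks, with overlap of the ages, and its change of 0.075 ± 0.077 (SE, adjusted p = 0.459) was not called.

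Within arrays, both ratios that hold Atp5g2 were called, also under the other 3 scalings. Atp5g1 over Atp5g2 ran from -0.0072 to 0.44 at 1 week and from -0.47 to -0.098 at 8 weeks, and fell by 0.36 (exact permutation p = 0.00952, adjusted p = 0.0143). Atp5g2 over Atp5g3 ran from -0.32 to -0.020 and from 0.038 to 0.33, and rose by 0.33 (exact permutation p = 0.00952, adjusted p = 0.0143). For Atp5g1 over Atp5g3 the ages overlapped and the difference was -0.036 (exact permutation p = 0.648), with a turned sign but no call under the other 3 scalings (0.11 to 0.12).

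Atp5o, the subunit that ties the head to the outer stalk (OSCP), read from 1998 to 2421 at 1 week (median 2273) and 1832, 1923, 1832 and 1917 at 8 weeks. There was no overlap between the ages, and the change was -0.26 ± 0.079 (SE, adjusted p = 0.0214); on the deposited values it read 0.27 without a call. Its second probe set was called too, at -0.38. The call on the brighter one ended without female replicate 2 at 1 week, or female replicate 1 or male replicate 1 at 8 weeks (adjusted p = 0.0503, 0.069 and 0.0662). Closest to the threshold without a call were Atp5md at -0.30 (adjusted p = 0.0529), Atp5j, coupling factor 6 of the outer stalk, at 0.25 (adjusted p = 0.0542) and Atp5h, also of the outer stalk, at 0.23 (adjusted p = 0.0688). Atp5k, a small membrane subunit, had the largest standard error of the members, with values from 1234 to 3851, with a median of 2057, at 1 week and a difference of -0.32 ± 0.29 (SE, adjusted p = 0.39).

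Assembly factors of complex I within the members split into those that rose and those that were not called. Of 5 genes 2 were higher and 0 lower, with a median log2 change of 0.047, and at an unadjusted p under 0.05 limma also gave 0 lower. The 72 tested subunits of complexes I, III, IV and V gave 18 higher and 7 lower with a median of 0.096. The shares higher were 40% of assembly factors and 25% of subunits, against 21.9% of all genes. The shares lower were 0% and 9.72%, against 24.0%. The difference between subunits and assembly factors was not tested.

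Ndufaf1, an early factor for the membrane arm, read from 173 to 197 at 1 week (median 182) and 219, 239, 249 and 241 at 8 weeks. The ages did not overlap and the change was 0.33 ± 0.070 (SE, adjusted p = 0.00341). Ndufaf3, which works with Ndufaf4 on the arm that binds ubiquinone, read from 388 to 418 at 1 week (median 407) and 504, 488, 520.1 and 502 at 8 weeks. Again the ages did not overlap, and the change was 0.30 ± 0.065 (SE, adjusted p = 0.00392). Both calls held under the other 3 scalings and in all 10 fits that left out an array.

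Ndufaf4 itself differed by -0.025 ± 0.082 (SE, adjusted p = 0.824). Ndufaf5, which modifies an arginine of the Ndufs7 protein, differed by -0.034 ± 0.080 (SE, adjusted p = 0.757). Ndufaf7, which methylates an arginine of another core subunit, differed by 0.047 ± 0.084 (SE, adjusted p = 0.681). None of the 3 was called and the ages overlapped in each, although on the deposited values they read 0.47, 0.47 and 0.52, close to the median of all genes there. The supercomplex factor Cox7a2l differed by -0.30 ± 0.13 (SE, adjusted p = 0.0903) and was not called.

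Probe sets of a gene did not always give the same answer. Of 139 tested member probe sets 34 were higher (24.5%) and 9 lower (6.47%), against 22.0% and 24.0% of all 13576 tested probe sets (46.0% together). In 40 genes with several tested probe sets, calls differed in 12 and were opposite in 1, Ndufs4. The widest spread was in Uqcr10, a small subunit of complex III, whose brightest probe set differed by 0.046 and whose dimmest tested one rose by 0.87 ± 0.15 (SE, adjusted p = 0.00111). That probe set ran from 77.7 to 140.1, with a median of 95.9, at 1 week and 165, 253, 181 and 227 at 8 weeks. Names ending in _s_at or _x_at mark probe sets that can read several transcripts, and 39 of the 139 tested were of this kind. The median log2 difference was 0.061 for _s_at and 0.092 for _x_at, against 0.086 for names ending in plain _at. Several members have processed pseudogenes, and signal from a close copy cannot be told apart from the gene itself.

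The level of each complex was followed in each array as the median over its genes of the log2 deviation from the gene's own mean. For complex I it ran from -0.16 to 0.0073 at 1 week and from -0.013 to 0.13 at 8 weeks. The ages overlapped through female replicate 1 at 8 weeks, the lowest of its age, and the lowest of all was female replicate 1 at 1 week. For complex IV it ran from -0.097 to 0.0042 and from 0.019 to 0.11, without overlap. These levels were taken on quantile-normalized values only, and with median scaling the median change of complex IV was -0.038. For ATP synthase the range at 8 weeks, -0.021 to 0.041, lay within that at 1 week, -0.058 to 0.072, and complex III and the assembly factors overlapped as well.

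**Figure D5:**
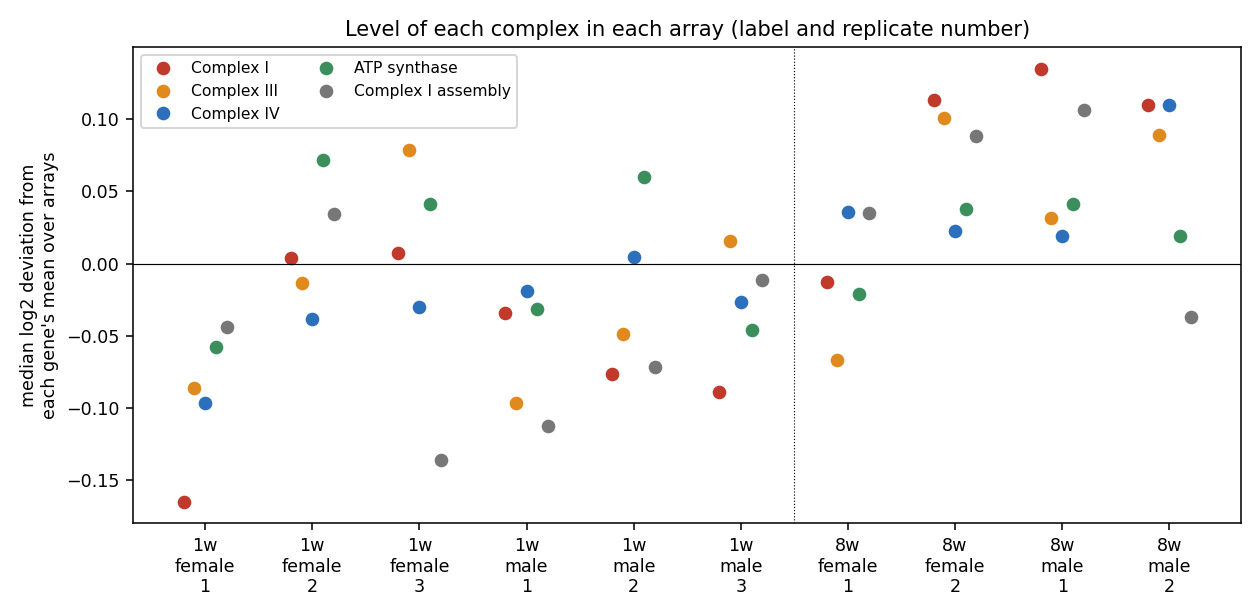
Median log2 deviation of each complex from its genes' means over all arrays (quantile-normalized), in each array named by label and replicate; the dotted line parts 1 week from 8 weeks. Complex I lies between 0.11 and 0.13 in 3 of the 4 arrays at 8 weeks and at -0.013 in the other, female replicate 1.

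Sex was compared at 8 weeks between 2 arrays labelled male and 2 labelled female, within the model of all 10 arrays. No member was called of 79, nor any of the 8148 genes (0.00%; limma, adjusted p under 0.05), and at an unadjusted p under 0.05 there was 1 member and 193 genes (2.37%). The test thus missed even Xist, which read 1676 and 1405 in the female arrays and 131 and 134 in the male arrays at 8 weeks. Its estimate of the spread also draws on the arrays at 1 week that opposed their label. The lack of calls therefore does not show that the sexes were alike. Log2 changes of members, male minus female, ran from -0.64 (Cox8c) to 0.45 (Ndufb1), with a median of 0.047 against 0.011 for all genes. Fitting the 4 arrays alone called 0 members and gave 2 at an unadjusted p under 0.05.

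Genes around the pathway were set beside the members. Complex II, which feeds electrons from succinate and is the one complex encoded wholly in the nucleus, had 2 of 4 genes higher and 0 lower (median 0.17). That is 50% and 0%, against 21.9% and 24.0% of all genes. Sdha, its flavin subunit, rose from 1051 to 1220.2 at 1 week to between 1779 and 2055 at 8 weeks, by 0.71 ± 0.074 (SE, adjusted p = 4.01e-05). Sdhc, a membrane anchor, rose by 0.32 ± 0.096 (SE, adjusted p = 0.019), with overlap of the ages.

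Of 33 tested assembly factors outside the member rule, 6 were higher and 2 lower (18.2% and 6.06%, against 21.9% and 24.0% of all genes; median 0.093). Cox17, a copper chaperone for complex IV, was 643 ± 42.2 (SD, n = 4) at 8 weeks and 180.4 ± 47.7 (SD, n = 6) at 1 week, a rise of 1.74 ± 0.13 (SE, adjusted p = 6.09e-06). Dmac2, linked to the distal membrane arm of complex I, rose by 0.81 ± 0.10 (SE, adjusted p = 0.000139), and Uqcc1, a factor for complex III, by 0.71 ± 0.088 (SE, adjusted p = 0.000114). The ages did not overlap for any of these 3. The 2 called lower, named after their values were seen, were Dmac1, also linked to the distal membrane arm, at -0.31 (adjusted p = 0.00542) and Cox18, an insertase for complex IV, at -0.27 (adjusted p = 0.039), both without overlap, and on the deposited values they read 0.23 and 0.23 without a call.

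Of 22 tested mitochondrial carriers, membrane and import proteins, 3 were higher and 7 lower (13.6% and 31.8%, against 21.9% and 24.0% of all genes, a difference that was not tested). The median was -0.030, and with spike-in scaling 1 was higher and 1 lower. Timm50, a receptor of the inner membrane import channel, fell by 0.63 on the log2 scale (adjusted p = 0.00458), Hspe1, the mitochondrial co-chaperone, by 0.48 (adjusted p = 0.00224) and Phb2, a prohibitin scaffold, by 0.42 (adjusted p = 0.00129). On the deposited values Hspe1 and Phb2 read 0.071 and 0.13 and Timm50 -0.16, none of them called, and the list gave 15 higher and 0 lower there. The 3 called higher, also named after their values were seen, were Slc25a3, the phosphate carrier, at 0.40 (adjusted p = 0.00298), Vdac2, a channel of the outer membrane, at 0.30 (adjusted p = 0.00796) and Mfn1, a fusion protein, at 0.24 (adjusted p = 0.0136), all without overlap of the ages.

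Regulators of mitochondrial gene expression gave 3 higher and 3 lower of 14 (21.4% each way, near the 21.9% and 24.0% of all genes; median 0.054), and 11 higher and 0 lower on the deposited values. Ppargc1b, a coactivator of mitochondrial genes, was 744 ± 80.9 (SD, n = 4) at 8 weeks and 349 ± 28.2 (SD, n = 6) at 1 week, a rise of 1.04 ± 0.095 (SE, adjusted p = 1.68e-05). Its partner receptor Esrra rose by 0.75 ± 0.13 (SE, adjusted p = 0.00102) with overlap of the ages, and Ppargc1a rose by 0.55 ± 0.11 (SE, adjusted p = 0.00286) without overlap. The 3 called lower, named likewise, were Pprc1, a relative of these coactivators, at -0.41 (adjusted p = 0.00112) without overlap, Gabpa, the DNA-binding subunit of GABP, at -0.30 (adjusted p = 0.0255) and Polg2, a subunit of the mitochondrial DNA polymerase, at -0.28 (adjusted p = 0.04996) with overlap. On the deposited values these 3 read 0.035, 0.11 and 0.15, not called. These lists were chosen with earlier results known and carry no test of their own.

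Markers of several cell types also differed with age. Of 6 neuronal markers 3 were higher and 2 lower, and their summed intensity was 11622 to 14095 at 1 week and 11094 to 12216 at 8 weeks. Cerebellar markers had 4 of 7 higher, with sums of 2133 to 7074 and 4624 to 16926. Higher markers were 2 of 3 tested for oligodendrocytes, 4 of 4 for microglia, 3 of 3 for fast-spiking interneurons, 1 of 5 for astrocytes and 2 of 3 for the pituitary, with 0 lower in each. Lower were 2 of 3 for endothelium and the 1 tested for red blood cells. On the deposited values endothelium gave 1 higher and 0 lower instead. For liver 0 of 3 were called, with sums of 5113 to 9484 at 1 week and 3916 to 11844 at 8 weeks. The liver marker Alb varied widely between arrays, from 116 to 3249 at 1 week and from 70.8 to 3481 at 8 weeks. With spike-in scaling 2 liver markers were lower, and on the deposited values 1 was higher. The summed markers of oligodendrocytes ran from 1359 to 6948 at 1 week and from 7917 to 10834 at 8 weeks, and those of the pituitary from 160.0 to 2248 and from 951 to 13220.3. The part of these cells in the members' changes was not tested. Of 11 muscle markers 9 were below the filter and the other 2, Acta1 and Ckm, were not called, with sums of 267 to 815 and 302 to 393. The other markers below the filter were Mog, Aif1, Tie1 and Hba-a1.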

How the data were processed

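Deposited values were linear intensities, 1 column per array. How the authors summarised probes is not given in the sources used here. Of 22690 probe sets, 64 array controls were left out, as were 8 naming a member among several symbols. Arrays were quantile-normalized, 24 was added (the 20th percentile of deposited values) and log2 taken, and probe sets under the 40th percentile of mean log2 were left out, leaving 13576. Folds are therefore on the log2(value + 24) scale. The brightest probe set stood for a gene. limma 3.58.1 (R 4.3.3) was fitted over all probe sets with a coefficient for each combination of age and sex label, with two-sided p-values adjusted by Benjamini-Hochberg (threshold 0.05), and tested on simulated data. Alternatives were other pseudocounts, scalings, filters, probe set choices, arrays left out, a replicate block, age alone, an intensity trend and array weights.

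Members and lists were chosen with earlier results of these data known. Named genes were up to 5 rises and 3 falls per complex, members called against their complex's more frequent direction, assembly factors, paired isoforms, members with opposite probe sets, and up to 3 genes per context list. Other members were named after their values were seen. Context lists were complex II, other assembly factors, carriers and import proteins, and regulators.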

Additional observations from a re-analysis of the deposited data

Results flagged for a closer look

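In 3 of 54 groups of arrays (27 named genes at 2 ages), 1 array stood apart from the rest by a test of its gap to the nearest value against the range of the group, and chance alone does this in about 1 in 20 groups. Atp5g1 at 8 weeks read 1030.4 in female replicate 1, against 1337 to 1373 in the other 3 arrays. Cox4i2 at 1 week read 111 in female replicate 3, against 135 to 145 in the other 5. Cox6b1 at 8 weeks read 3089.6 in male replicate 2, against 3115 to 3120 in the others, a small step in a group that hardly varied.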

How the results depend on the processing

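On the deposited values without normalization 67 of 79 members were higher and 0 lower, against 5261 and 365 of 8148 genes. Medians there were 0.68 for complex I, 0.59 for III, 0.48 for IV, 0.51 for ATP synthase and 0.52 for the assembly factors. All 27 members below 0 turned above it there (0.038 to 0.51), among them Atp5e 0.19, Atp5g1 0.26, Atp5g3 0.15, Atp5o 0.27, Cox4i2 0.16, Cox6a2 0.31, Cox6b1 0.42, Ndufaf4 0.47, Ndufaf5 0.47, Ndufs4 0.29 and Uqcrq 0.26. That scale keeps the arrays' brightness, which was higher at 8 weeks. With spike-in scaling 0 were lower, against 707 of 8150 genes. The medians were 0.32 (I), 0.22 (III), 0.14 (ATP synthase) and 0.19 (assembly). With median scaling IV read -0.038 and ATP synthase -0.011. The 60th percentile filter gave IV 0.15. Age alone without the 4 opposed arrays gave 8 higher, 2 lower and 0.15 for assembly; without the 5 unmatched arrays it gave 8 higher, 3 lower, 0.17 for III and 0.16 for assembly.

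Leaving out each array in turn gave 13 to 20 of 79 members higher and 1 to 9 lower. Of the 8142 to 8166 genes tested, 1482 to 1754 were higher and 1638 to 1872 lower. In complex I 6 to 12 of 33 genes were higher. Medians then ran from 0.10 to 0.19 (I), 0.019 to 0.11 (III), 0.066 to 0.12 (IV), 0.019 to 0.070 (ATP synthase) and -0.0039 to 0.090 (assembly). The labels do not say whether arrays with the same replicate number were handled together. Deviations of same-numbered arrays from their group means correlated by -0.025 to 0.19. Differently numbered arrays were not compared, and whether the numbers mark a batch was not tested. The replicate block leaves fewer residual degrees of freedom. With it 17 of 79 members were higher and 8 lower, against 1695 and 1828 of 8148 genes, and complex III read 0.15. Cox6a1, Ndufa1, Ndufb9 and Ndufs4 lost their calls in that fit (adjusted p = 0.0737, 0.0646, 0.0903 and 0.0512). Atp5md and Cox7a2l were called lower in it (adjusted p = 0.0314 and 0.029). Cox6a1 over Cox6a2 missed the threshold with 3 scalings, at 0.25 (deposited; exact permutation, adjusted p = 0.0571), 0.15 (median; adjusted p = 0.190) and 0.18 (spike-in; adjusted p = 0.114). Cox6b1 over Cox6b2 passed with a pseudocount of 1 (0.43; exact permutation, adjusted p = 0.0457) and ran from 0.20 to 0.39 over the arrays left out. The other ratios kept their side of the threshold. For sex, 0 members were called in each of 6 alternatives, with 1 to 7 at an unadjusted p under 0.05. Other causes were not tested.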
